A study of Mus musculus with 12 samples.

Results

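Monocyte markers and chemokine receptors were followed in mouse bone marrow-derived macrophages as a group of 9 genes: the receptors Ccr2, Ccr1, Cx3cr1 and Ccrl2, and Ly6c2, Plac8, F13a1, F10 and Adgre4, which are abundant in blood monocytes. They were taken by name from the 24445 genes of the deposited count tables, each represented by the transcript that held most reads, and all 9 had reads. Marrow of C57BL/6 mice was grown for 7 to 8 days with 15% L929-conditioned medium, which supplies M-CSF, the growth factor of macrophages. The mice were wild type for the histone methyltransferase DOT1L (WT) or lacked it in myeloid cells (KO), with Lyz2 named in the labels as the gene of the myeloid strain. The labels name no Cre allele and do not say which Lyz2 alleles each genotype carried. Cells of each genotype either received no treatment or 10 ng/mL of Escherichia coli lipopolysaccharide (LPS) for 3 hours, which made 4 groups of 3 libraries. The labels call the libraries of a group biological replicates and do not say whether each came from its own mouse, so p-values measure the spread between these libraries.

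Monocytes leave the marrow through CCR2, the receptor of the chemokine CCL2, and become macrophages in tissue. Classical monocytes carry much CCR2 and Ly6C, while nonclassical monocytes carry much CX3CR1, the receptor of membrane-bound fractalkine. Macrophages grown with M-CSF descend from such cells, and LPS, sensed by TLR4, changes which chemokines they make and which they can answer.

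Total counts ran from 8.64 to 13.54 M per library, so that 3 reads correspond to 0.222 to 0.347 CPM (counts scaled to 1 M reads per library). All 10 macrophage markers were expressed, with a summed level of 6766 to 10974 CPM, and markers of lymphocytes, stromal cells and erythroid cells summed to at most 1.2 CPM. WT replicate 1 lay furthest from its group mates in both conditions, at a mean distance of 0.527 untreated and 0.503 with LPS on the log2 CPM scale. WT replicates 2 and 3 lay at 0.437 and 0.422 untreated and at 0.468 and 0.434 with LPS, so the margin was small with LPS. KO libraries were all less spread, at 0.299 to 0.375. Replicate 2 of every group was male by its Xist and Ddx3y levels and the other libraries were female. Reads of Dot1l gave 82.4, 111.2 and 110.6 CPM in untreated WT, 97.8, 85.8 and 86.4 in untreated KO, 67.3, 69.2 and 60.6 in LPS-treated WT, and 73.3, 65.3 and 70.2 in LPS-treated KO (replicates 1, 2 and 3). Dot1l did not differ between genotypes by edgeR's quasi-likelihood test (adjusted p = 0.902 untreated and 0.754 with LPS). The counts cover the whole transcript and no label names the deleted part, so these reads do not check the labels.

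The levels of the 9 genes were first set in order by the authors' RPKM, which divides reads by transcript length. In untreated WT cells Ccr1, a receptor of CCL3 and CCL5, stood at a mean of 59.6 RPKM. F10 followed at 9.88 RPKM and Ccr2 at 9.52 RPKM, and their libraries overlapped. Ccrl2, at 5.12 RPKM, and F13a1, at 4.24 RPKM, overlapped as well. Cx3cr1 (0.644 RPKM), Plac8 (0.613 RPKM) and Ly6c2 (0.35 RPKM) overlapped each with the next, and Adgre4 came last at 0.104 RPKM. The classical monocyte marker Ly6c2 and the nonclassical marker Cx3cr1 were thus both below 1 RPKM in the mean of these macrophage cultures.

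The order in untreated KO cells led with Ccr1 at 66 RPKM, then Ccr2 at 13.2 and F10 at 12.4 RPKM, which overlapped. F13a1 (6.86 RPKM) and Ccrl2 (5.24 RPKM) overlapped, and so did each neighbouring pair among Plac8 (0.788 RPKM), Cx3cr1 (0.717 RPKM), Ly6c2 (0.693 RPKM) and Adgre4 (0.476 RPKM). With LPS, Ccrl2 stood above Ccr1 in both genotypes, at 153 RPKM against 41.7 in WT and 164 against 49.2 in KO, with no overlap. Next came F10, at 32.9 RPKM in WT, below every Ccr1 library, and at 39.6 RPKM in KO, where the libraries of F10 and Ccr1 overlapped. Ccr2 held only 2.44 RPKM in WT and 2.61 RPKM in KO, and overlapped with F13a1 (3.07 RPKM) in WT and with Plac8 (2.41 RPKM) in KO. The lowest levels with LPS were those of Adgre4 in WT (0.083 RPKM) and of Cx3cr1 in KO (0.173 RPKM).

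**Figure D1:**
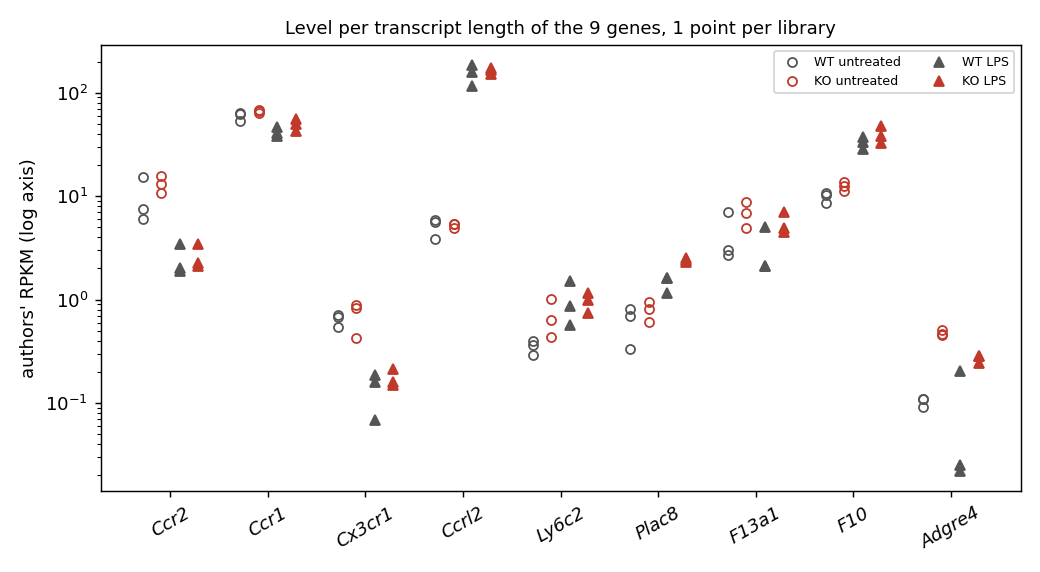
Authors' RPKM on a log axis for the 9 genes, with 1 point per library, circles for untreated and triangles for LPS-treated cells, grey for WT and red for KO. Ccr1 leads in untreated cells, at 53.3 to 67.4 RPKM, and Ccrl2 leads with LPS, at 115.3 to 185.3 RPKM.

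The next comparison asked which of these genes responded to LPS. On the main scale, Ccrl2, F10, Plac8 and Ly6c2 rose, Ccr2 and Cx3cr1 fell, and Ccr1, F13a1 and Adgre4 did not pass the test in either genotype. The test was edgeR's quasi-likelihood test on read counts, without pairing of libraries, with Benjamini-Hochberg adjustment over all genes at a threshold of 0.05. CPM below are on 1 common TMM scale (trimmed mean of M values, which centres the bulk of genes). In WT, 6 of the 9 genes passed, 4 higher and 2 lower, where 57.4% of 11984 genes passed (27.6% higher and 29.8% lower). In KO the same 6 genes passed in the same directions, where 61.2% of all genes passed (30.3% higher and 30.9% lower). Of these 6 genes, Plac8 and Ly6c2 had too few untreated reads, and Cx3cr1 too few reads with LPS, to pass the filter on that condition alone, so they entered the test through the condition where they are high and the count of 6 supports nothing by itself. In a fit of the 6 WT libraries alone Plac8 and Ly6c2 were not tested and 4 genes passed (Ccrl2, F10, Ccr2 and Cx3cr1), while the fit of the 6 KO libraries kept all 6. The same 6 genes also had no overlap between untreated and treated libraries in each genotype, and in KO so did Adgre4, which was lower with LPS. Over all genes, 57.8% had no overlap in WT (27.6% higher and 30.2% lower) and 74.1% in KO (36.8% higher and 37.3% lower). The median log2 fold change of the 9 genes, with no filter on low counts, was 0.07 in WT and 0.27 in KO, beside -0.01 over all genes in each. All LPS values depend on the scale: with library totals in place of TMM, the median of all genes moved by 0.55 in WT and 0.59 in KO, and the share of higher genes among those passing went from 48.1% to 18.4% in WT and from 49.5% to 18.5% in KO.

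Ccrl2 (chromosome 9, 111054834 to 111057518, minus strand, mm10) encodes an atypical receptor that binds chemerin and does not signal as other chemokine receptors do. Its level was 8.13, 10.9 and 11.5 CPM in untreated WT and 363.5, 526.9 and 447.3 CPM with LPS. In KO it held 10.3, 9.43 and 10.2 CPM untreated and 466.4, 448.1 and 490.3 CPM with LPS. Every LPS-treated library thus lay far above every untreated one, and WT replicate 1 was the lowest of the WT libraries in each condition. The log2 fold change was 5.44 ± 0.16 in WT (43.5-fold, adjusted p = 3.86e-12) and 5.55 ± 0.16 in KO (46.9-fold, adjusted p = 2.76e-12, n = 3 per group, edgeR). Here ± gives the standard error from edgeR's fit, which draws its spread from all libraries fitted and moderates it across genes. On library totals the log2 fold change was 4.90 and 4.96, and still passed.

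F10 (chromosome 8, 13037308 to 13056676, plus strand) encodes coagulation factor X, a vitamin K-dependent protease precursor that macrophages also make. It held 28.8, 21.4 and 25.6 CPM in untreated WT and 148.8, 102.9 and 118.6 CPM with LPS. In KO it held 29.9, 27.4 and 33.1 CPM untreated and 138.7, 123.6 and 170.2 CPM with LPS. The conditions did not overlap, and replicate 2 was lowest in all 4 groups. F10 rose by 2.29 ± 0.16 on the log2 scale in WT (4.89-fold, adjusted p = 2.55e-08) and 2.26 ± 0.16 in KO (4.78-fold, adjusted p = 2.01e-08), n = 3 libraries per group in edgeR's test.

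The upstream windows of Ccrl2 and F10, the 2 genes with the most reads among those that rose, are shown because such regions hold the sites where factors activated by LPS, NF-kB among them, are known to bind. Ccr1, which did not pass, is shown beside them and was chosen after its values were seen. Each window holds the 250 bases before the gene's start in RefSeq (GRCm38.p6), 5′ to 3′ on the gene's strand, and capitals mark matches on either strand to an NF-kB motif, the PU.1 core GAGGAA or the interferon response element core GAAANNGAA. They lie at chr9:111057519-111057768 on the minus strand for Ccrl2, chr8:13037058-13037307 on the plus strand for F10 and chr9:123968693-123968942 on the minus strand for Ccr1.
Ccrl2: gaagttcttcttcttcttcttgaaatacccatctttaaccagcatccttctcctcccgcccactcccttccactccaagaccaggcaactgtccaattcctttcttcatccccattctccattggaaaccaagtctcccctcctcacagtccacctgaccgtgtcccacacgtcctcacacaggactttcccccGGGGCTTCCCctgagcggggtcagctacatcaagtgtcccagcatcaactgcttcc
F10: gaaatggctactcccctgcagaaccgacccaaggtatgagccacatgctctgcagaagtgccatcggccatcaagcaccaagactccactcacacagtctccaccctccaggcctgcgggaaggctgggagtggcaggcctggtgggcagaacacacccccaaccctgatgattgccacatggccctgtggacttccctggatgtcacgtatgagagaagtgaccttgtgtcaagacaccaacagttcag
Ccr1: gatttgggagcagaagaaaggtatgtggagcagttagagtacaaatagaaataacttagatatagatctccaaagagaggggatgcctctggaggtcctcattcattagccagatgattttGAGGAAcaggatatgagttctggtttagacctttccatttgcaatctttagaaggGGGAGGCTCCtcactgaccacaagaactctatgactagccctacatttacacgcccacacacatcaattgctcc
Ccrl2 held an NF-kB match that began at position -56 from the start site. Ccr1 also held an NF-kB match, at -74, with a PU.1 core at -129, and F10 held no match to any of the 3 motifs. Of 27025 genes with a window of this length, 7.03% held the NF-kB motif, 23.1% the PU.1 core and 7.16% the interferon response element core. No 2 matches overlapped in the windows shown. A match is a description of letters and not a measured site. Among the other genes that passed, the PU.1 core appeared in the windows of Ly6c2 and Plac8, the interferon core in that of Ccr2 and none in that of Cx3cr1. Those windows are not printed because annotated exons or transcripts reach into them.

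Plac8 (chromosome 5, 100551589 to 100572253, minus strand) encodes a small cysteine-rich protein that is abundant in classical monocytes. It stood near the floor in untreated cells, with 5, 3 and 7 reads in WT and 8, 5 and 9 in KO. With LPS it had 8, 15 and 13 reads in WT (1.20, 1.52 and 1.48 CPM) and 25, 24 and 25 in KO (2.21, 2.22 and 2.35 CPM). The conditions did not overlap in CPM. Plac8 rose by 1.81 ± 0.35 log2 units in WT (adjusted p = 5.45e-04) and 2.17 ± 0.29 in KO (adjusted p = 1.71e-05, n = 3 per group, edgeR). Pooled over libraries, the ratio was 3.61 in WT (exact binomial 95% interval 1.93 to 7.09) and 4.56 in KO (2.8 to 7.71), and such intervals cover counting error only.

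Ly6c2 (chromosome 15, 75108161 to 75112066, minus strand) encodes the Ly6C antigen by which classical mouse monocytes are sorted. It had 3, 3 and 4 reads in untreated WT, 5, 6 and 11 in untreated KO, 12, 6 and 8 in LPS-treated WT and 12, 9 and 13 in LPS-treated KO. In CPM every LPS-treated library of a genotype lay above its untreated libraries, by as little as 0.831 against 0.715 CPM in KO. The log2 fold change was 1.94 ± 0.52 in WT (adjusted p = 0.00552) and 1.05 ± 0.42 in KO (adjusted p = 0.0443, n = 3 per group, edgeR). The KO call passed with the replicate number as a block (1.07, adjusted p = 0.0281) but was lost in several other settings. These were DESeq2 (adjusted p = 0.0981), no filter on low counts (0.0638), the fit without replicate 2 of every group (0.0946) and library totals (0.47, adjusted p = 0.314). It was also lost in 7 of 12 fits that left out 1 library. Those 7 were the fits without untreated WT replicate 2 or 3, LPS-treated WT replicate 3, untreated KO replicate 1 or 2, or LPS-treated KO replicate 1 or 3, with adjusted p up to 0.168 and values from 0.77. Of the 50-base words of the Ly6c2 transcript, 33% also occur in other genes, mainly its neighbour Ly6c1, so its counts are uncertain. Ly6c1 itself had 1 read in all 12 libraries.

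Ccr2 (chromosome 9, 124101918 to 124109140, plus strand) held 54.9, 24.5 and 19.8 CPM in untreated WT and 18.3, 9.10 and 9.67 CPM with LPS. In KO it held 34.4, 51.9 and 42.2 CPM untreated and 10.2, 17.4 and 10.8 CPM with LPS. Untreated and treated libraries did not overlap within a genotype, but the highest treated WT library, replicate 1, lay close to the lowest untreated one, replicate 3. Ccr2 changed by -1.44 ± 0.38 log2 units in WT (2.71-fold lower, adjusted p = 0.00495) and -1.74 ± 0.36 in KO (3.35-fold lower, adjusted p = 8.88e-04, n = 3 per group, edgeR). Without untreated WT replicate 1 the WT value was -0.86 and still passed (adjusted p = 0.0288).

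Cx3cr1 (chromosome 9, 120048683 to 120068296, minus strand) had 21, 35 and 32 reads in untreated WT and 7, 8 and 3 with LPS. In KO it had 45, 19 and 46 reads untreated and 12, 9 and 8 with LPS. In CPM the lowest untreated library of each genotype was above its highest treated library. Cx3cr1 changed by -1.67 ± 0.39 log2 units in WT (adjusted p = 0.00201) and -1.46 ± 0.34 in KO (adjusted p = 0.00191, n = 3 per group, edgeR). An antisense gene covers 1.73% of the exon bases of Cx3cr1, and no source used here gives the strand setting of the counting. In bulk samples like these, fewer cells that carry a gene and less RNA per cell cannot be told apart.

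Ccr1, F13a1 and Adgre4 did not pass. Ccr1 (chromosome 9, 123962126 to 123968692, minus strand) held 152 to 164.6 CPM in untreated WT, 145.4 to 174.7 CPM in LPS-treated WT, 160.8 to 173.3 CPM in untreated KO and 159.9 to 220.6 CPM in LPS-treated KO, so that conditions overlapped in each genotype. Its log2 fold change was 0.04 ± 0.11 in WT (adjusted p = 0.783) and 0.17 ± 0.11 in KO (adjusted p = 0.191, n = 3 per group, edgeR). On library totals Ccr1 turned lower and passed, at -0.51 in WT (adjusted p = 5.95e-04) and -0.42 in KO (adjusted p = 0.00209). With the replicate number as a block it passed as higher in KO instead (0.16, adjusted p = 0.0419), and it did so without LPS-treated KO replicate 3 (0.28, adjusted p = 0.0363). The direction of Ccr1 therefore rests on the scale.

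F13a1 (chromosome 13, 36867178 to 37050244, minus strand), the catalytic A subunit of coagulation factor XIII, held 27.4, 9.49 and 10.8 CPM in untreated WT and 28.8, 11.02 and 10.9 CPM with LPS. In KO it held 17.0, 31.2 and 23.7 CPM untreated and 25.7, 37.9 and 23.3 CPM with LPS. WT replicate 1 was far above its group mates in both conditions. The log2 fold change was 0.08 ± 0.44 in WT (adjusted p = 0.89) and 0.28 ± 0.41 in KO (adjusted p = 0.577, n = 3 per group, edgeR). With the replicate number as a block F13a1 passed in KO (0.28, adjusted p = 0.0134), and on library totals its values turned to -0.47 and -0.32 without passing. Adgre4 gave 0.07 ± 0.69 in WT (adjusted p = 0.935) and -0.22 ± 0.37 in KO (adjusted p = 0.638).

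**Figure D2:**
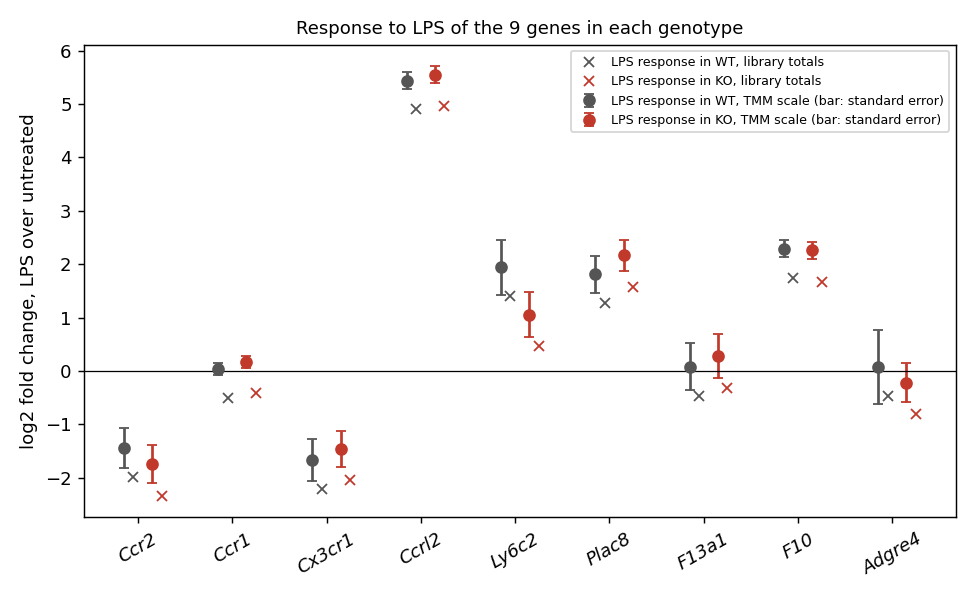
Log2 fold change of LPS-treated over untreated cells for the 9 genes, grey for WT and red for KO, with dots and standard errors on the TMM scale and crosses for library totals. Ccrl2 stands at 5.44 and 5.55, Ccr2 and Cx3cr1 lie below 0 on both scales, and the crosses of Ccr1 lie below 0 while its dots lie above.

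Whether the LPS response differed between genotypes was tested as an interaction. None of the 9 genes passed and 0% of 11984 genes did by edgeR, with 288 genes at an unadjusted p under 0.05, none of the 9 among them, and 0 by DESeq2. The largest interaction among the 9 was that of Ly6c2, at -0.89 ± 0.68 log2 units, followed by Plac8 at 0.35 ± 0.49 and Ccr2 at -0.31 ± 0.52 (adjusted p = 1 for each). Ccrl2 differed by 0.11 ± 0.20, F10 by -0.03 ± 0.22, Ccr1 by 0.13 ± 0.15, Cx3cr1 by 0.22 ± 0.54, F13a1 by 0.20 ± 0.60 and Adgre4 by -0.29 ± 0.79. Counts were also simulated for genes drawn from all those tested, each with a single mean level over the libraries. There 58 of 100 genes with a 2-fold interaction were recovered and 91 of 100 with a 4-fold one, with 10 false calls. These shares do not describe genes with few reads, such as Ly6c2 and Adgre4, and the simulated counts lacked deviations that genes of a library share. All 9 estimates were smaller than 2-fold, but with 1 library left out Ly6c2 reached -1.22 and Adgre4 1.37 log2 units. Larger interactions of such genes are therefore not excluded.

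KO was then compared with WT in untreated and in LPS-treated cells, the question of how loss of DOT1L bears on these genes. Adgre4 was the gene that separated the genotypes most, with more reads in every KO library than in any WT library of its condition, but none of the 9 genes passed the test in either condition. Untreated, 7 of the 9 had enough reads to be tested and 0 passed, where 0% of 11622 genes passed by edgeR, 841 had an unadjusted p under 0.05 and DESeq2 called 40. With LPS 8 were tested and 0 passed, where 1.13% of 11264 genes passed. DESeq2 called none of the 9 in either condition. At an unadjusted p under 0.05 stood Adgre4 untreated, and Adgre4, Plac8 and F13a1 with LPS. With no filter on low counts, 8 of 9 values were positive in each condition, where 52.9% of all genes untreated and 52.5% with LPS were positive. The tally includes genes with too few reads to be tested and values near 0. In the filtered test, leaving out 1 library reversed Ccr2 with LPS in 3 of 6 fits and Cx3cr1 untreated in 2 of 6. With no filter, the median log2 fold change of the 9 genes was 0.34 untreated and 0.22 with LPS, beside 0.02 over all genes in each.

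Adgre4 (chromosome 17, 55749984 to 55853662, plus strand) encodes an adhesion receptor with EGF-like domains, a relative of the macrophage antigen encoded by Adgre1. There were 4, 5 and 4 reads in untreated WT and 23, 21 and 22 in untreated KO. With LPS it had 7, 1 and 1 reads in WT and 15, 15 and 12 in KO. KO libraries lay between 1.13 and 1.62 CPM in both conditions, and WT libraries between 0.101 and 1.05 CPM, the highest being LPS-treated replicate 1. KO differed from WT by 2.12 ± 0.30 log2 units untreated (adjusted p = 0.156) and 1.79 ± 0.62 with LPS (adjusted p = 0.228, n = 3 per group, edgeR). Pooled over libraries, KO had 4.36 times the WT level untreated (exact binomial 95% interval 2.38 to 8.61) and 3.61 times with LPS (1.73 to 8.44). These intervals cover counting error only and leave out the spread between libraries. In LPS-treated WT, 7 of the 9 pooled reads came from replicate 1. The gene entered the test only through its KO libraries. Its level was low throughout, at most 0.508 RPKM in any library.

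Beside Adgre4, groups that did not overlap were seen for Ly6c2 untreated and for Plac8 with LPS, each higher in KO. Of all genes tested, 15.2% had groups without overlap untreated (6.76% higher and 8.48% lower in KO) and 20.3% with LPS (11.1% higher and 9.17% lower). Among the 7 genes of the group tested untreated, only Adgre4 had no overlap. Among the 8 tested with LPS, Adgre4 and Plac8 had none. Because Adgre4 entered the test only through its KO libraries, these counts are given as a description. Ly6c2 had too few reads to be tested untreated, and its pooled ratio of KO over WT was 1.89 (0.858 to 4.47). With LPS its log2 difference was -0.01 ± 0.44. Plac8 differed by 0.66 ± 0.26 with LPS (adjusted p = 0.294, n = 3 per group, edgeR), at 2.26 ± 0.0783 CPM in KO and 1.40 ± 0.173 CPM in WT (SD, n = 3). Untreated, its pooled ratio was 1.26 (0.624 to 2.61) and the groups overlapped.

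F13a1 and Ccr2 overlapped between genotypes through WT replicate 1, which was as high as KO libraries, while the other 2 WT libraries lay below all KO libraries of their condition. F13a1 differed by 0.63 ± 0.40 untreated (adjusted p = 0.846) and 0.81 ± 0.36 with LPS (adjusted p = 0.361). Ccr2 differed by 0.41 ± 0.35 untreated (adjusted p = 0.904) and 0.07 ± 0.28 with LPS (adjusted p = 0.933, n = 3 per group, edgeR). Without untreated WT replicate 1, 3 of the 9 genes passed: Adgre4 (2.19, adjusted p = 0.00752), Ccr2 (0.97, adjusted p = 0.0315) and F10 (0.39, adjusted p = 0.042), where 6.34% of 11816 genes passed (3.7% higher). Without LPS-treated WT replicate 1, Adgre4 (3.43, adjusted p = 0.00825) and F13a1 (1.39, adjusted p = 0.00161) passed, where 4.76% of 11454 genes passed (3.13% higher). Adgre4 entered these fits too through its KO libraries, so its values are given as a description. The remaining 2 WT libraries stand for the group in these fits. They were read because WT replicate 1 lay furthest from its group mates over all genes, though with LPS by a small margin. The labels give no reason to drop this replicate.

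The other genes did not pass between genotypes with all libraries, where they were tested. F10 differed by 0.28 ± 0.14 untreated (adjusted p = 0.747) and 0.22 ± 0.15 with LPS (adjusted p = 0.548). Ccr1 differed by 0.10 ± 0.08 untreated (adjusted p = 0.891) and 0.20 ± 0.12 with LPS (adjusted p = 0.498). Ccrl2 differed by -0.01 ± 0.15 untreated and 0.06 ± 0.12 with LPS, and its sign changed between alternative settings. Cx3cr1 differed by 0.11 ± 0.29 untreated, and with LPS it had too few reads to be tested, with a pooled ratio of 1.25 (0.669 to 2.38). A larger difference of Cx3cr1 is therefore not excluded.

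**Figure D3:**
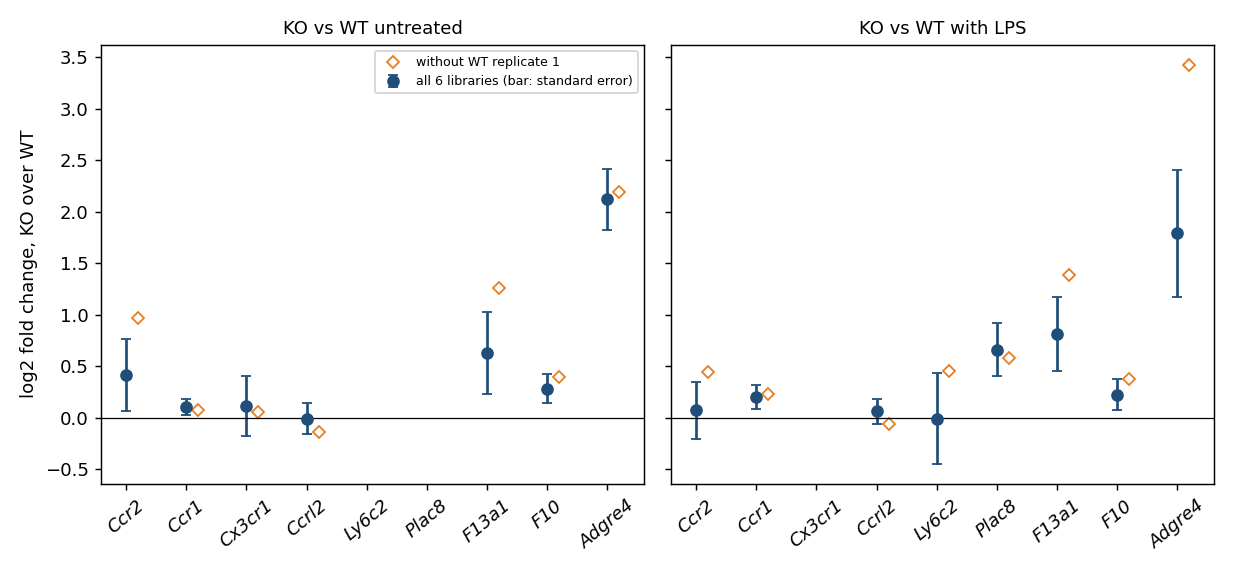
Log2 fold change of KO over WT for the 9 genes, untreated (left) and with LPS (right), with dots and standard errors for all 6 libraries and open diamonds for the fits without WT replicate 1. Adgre4 is highest, at 2.12 and 1.79. The diamonds of Ccr2 and F13a1 lie above their dots in both conditions, and so does that of Adgre4 with LPS, at 3.43. Genes with no point had too few reads to be tested.

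**Figure D4:**
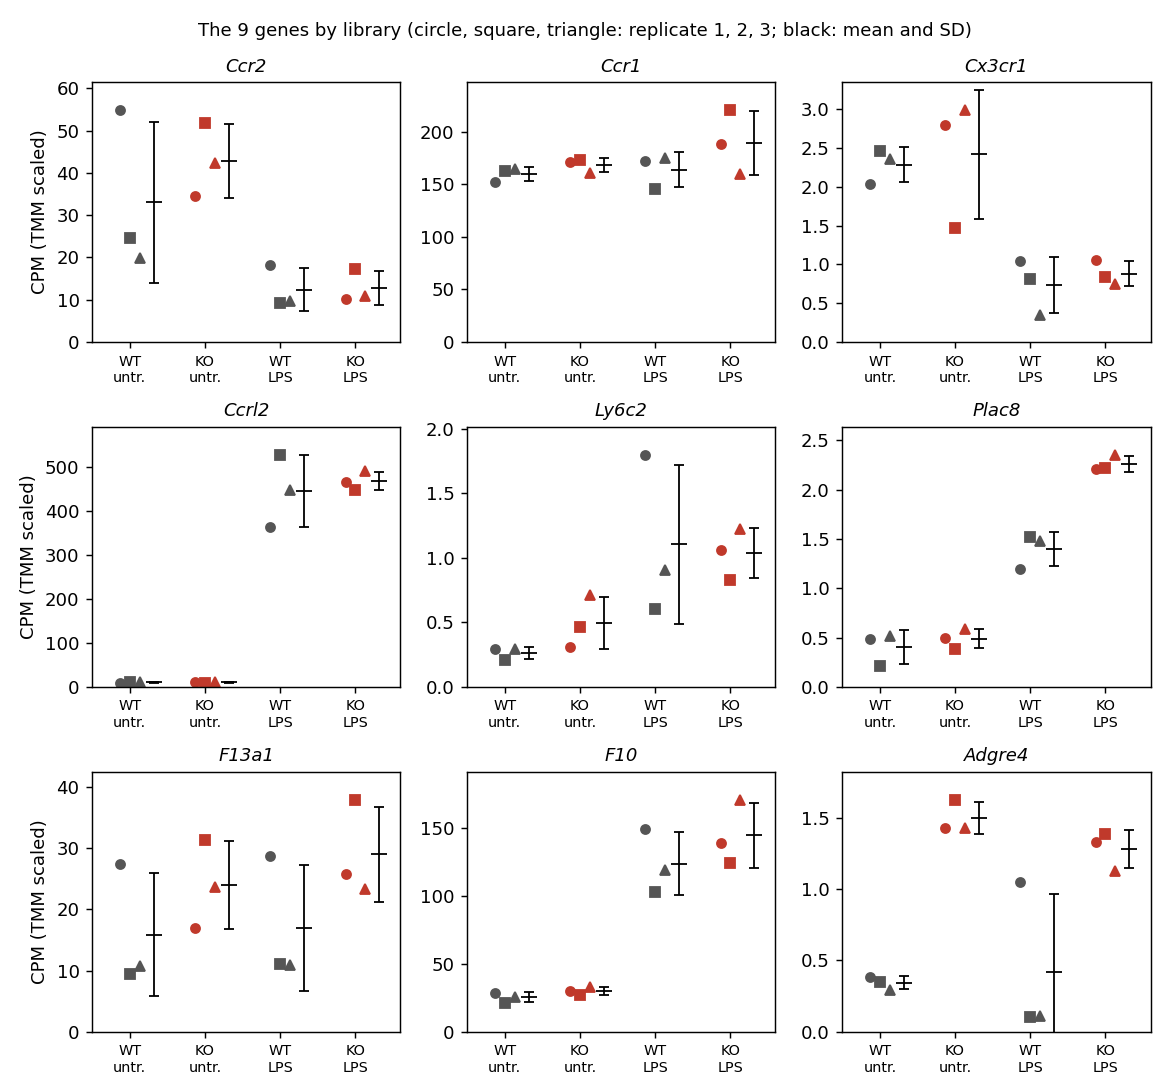
CPM on the common TMM scale for each gene, with 1 panel per gene, 1 point per library (circle, square and triangle for replicates 1, 2 and 3), grey for WT and red for KO, and the mean with its SD in black. The circles of WT lie above the other WT points for Ccr2 and F13a1 in both conditions, and the KO points of Adgre4 lie above 1.1 CPM.

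Markers of other cells were read beside these differences. Of 6 platelet and megakaryocyte markers 2 passed the filter, and their summed level was 90.6 to 102 CPM in untreated WT, 136 to 161 CPM in untreated KO, 135 to 143 CPM in LPS-treated WT and 179 to 256 CPM in LPS-treated KO. Nearly all of it was Pf4 (platelet factor 4, at 89 to 252 CPM), which macrophages also make, and Itga2b, Gp9 and Gp1bb each stayed at or below 0.708 CPM. Ppbp, a platelet chemokine at 0.227 to 3.4 CPM, was higher in LPS-treated KO than WT cells (2.11 ± 0.43 log2 units, adjusted p = 0.0472 by edgeR), and Pf4 untreated differed by 0.59 ± 0.09 (adjusted p = 0.156). F13a1 is abundant in platelets too, and the part of such cells in its values was not tested. Of 10 neutrophil markers 5 passed, with a summed level of 13.8 to 48.8 CPM. Ngp reached 19 CPM, S100a9 13.4, S100a8 10.2 and Ltf 5.24 CPM. The other neutrophil markers stayed at or below 1.25 CPM, with Ly6g at or below 0.15 CPM. S100a9 rose with LPS on the TMM scale (0.83 ± 0.26 in WT and 0.90 ± 0.24 in KO) but not on library totals (0.29 and 0.31). Of 8 dendritic cell markers 3 passed, with sums of 2.65 to 3.64 CPM untreated and 119 to 220 CPM with LPS, where Ccl22 alone reached 215 CPM and Flt3 stayed at or below 0.39 CPM. All 3 rose with LPS in each genotype: Ccl22 (6.48 ± 0.27 in WT and 7.08 ± 0.28 in KO), Xcr1 (3.62 ± 0.53 and 3.14 ± 0.36) and Zbtb46 (1.77 ± 0.60 and 1.31 ± 0.43), of which Zbtb46 did not pass on library totals (1.24 and 0.72). In untreated libraries alone only Ccl22 passed the filter. Xcr1 (at most 2.73 CPM) and Zbtb46 (at most 1.5 CPM) entered the test through the LPS-treated libraries, so their rise is given as a description. The part of such cells in the values of the 9 genes was not tested.

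The pattern of Ccr2 over the 12 libraries, after the mean of each LPS condition was taken out, was most like that of Ly86 (Pearson r = 0.972, Spearman rho = 0.986), Ggh (0.961 and 0.979) and Marcks (0.957 and 0.930) among 9745 genes. F13a1 came at rank 127 (0.871 and 0.860), Ccrl2 lay at the opposite end (-0.827 and -0.860), and F10 (0.446 and 0.594) and Ccr1 (0.289 and 0.035) lay between. The libraries share genotype and sex, and WT replicate 1 lay furthest from its group mates, so these coefficients are descriptions.

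Other genes of the same pathways were read from lists. Their counts stand against all genes tested, of which 27.6% were higher and 29.8% lower with LPS in WT, 30.3% and 30.9% in KO, 0% differed between genotypes untreated and 1.13% with LPS, and no list count is read as particular to its list. Genes with few reads could enter these counts through the condition where they are high. Of the 9 ligands of these receptors 7 rose with LPS in each genotype, with a median log2 fold change of 3.51 in WT and 3.58 in KO beside -0.05 and -0.02 over all genes tested. Among them were Ccl5 (9.39 ± 0.18 in WT and 8.92 ± 0.17 in KO), a ligand of CCR1, Ccl12 (5.82 ± 0.23 and 6.10 ± 0.23), a ligand of CCR2, and Ccl3 (4.32 ± 0.17 in each), a ligand of CCR1. On library totals the same count of 7 passed as higher, with 1 lower in WT and 2 in KO. Between genotypes 0 of 9 passed in either condition, with medians of 0.00 and 0.01, and the most abundant, Ccl9, differed by 0.11 ± 0.08 in each.

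Of 25 other chemoattractant receptors 11 were tested for LPS, and 6 passed as higher and 2 as lower in each genotype (5 and 5 on library totals), with medians of 0.81 in WT and 0.88 in KO. Only 7 of the 25 passed the filter in untreated libraries alone, beside 12 in LPS-treated ones. Some receptors thus entered the test through the LPS-treated libraries, so these counts and medians are given as a description. The formyl peptide receptors Fpr2 (6.67 ± 0.35 in WT and 6.95 ± 0.30 in KO) and Fpr1 (4.67 ± 0.26 and 4.97 ± 0.23) rose, and Cxcr4, the receptor of CXCL12, fell (-4.16 ± 0.26 and -4.67 ± 0.26). In LPS-treated cells 2 of 12 were higher in KO: Fpr2 (0.80 ± 0.14, adjusted p = 0.0304) and Ccr3 (0.56 ± 0.11, adjusted p = 0.044), with a list median of 0.40 beside -0.01 over all genes. Untreated, 0 of 7 passed, with a median of 0.22. Of 18 genes of receptor signalling and desensitisation 7 rose and 8 fell with LPS in each genotype (2 and 11 on library totals), with medians of -0.07 in WT and -0.10 in KO. Grk3, a receptor kinase, rose (2.96 ± 0.13 in WT and 2.63 ± 0.13 in KO), while beta-arrestin 1 (Arrb1, -1.53 ± 0.07 and -1.72 ± 0.07) and the kinase subunit Pik3cg (-1.58 ± 0.07 and -1.60 ± 0.07) fell. None of the 18 passed between genotypes, with medians of 0.01 untreated and -0.07 with LPS.

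Of 13 other markers of classical monocytes 12 were tested for LPS, and 7 rose in WT and 8 in KO with 0 lower (5 higher and 5 lower in each on library totals), with medians of 0.44 and 0.63. The proteoglycan gene Vcan rose most (6.97 ± 0.16 in WT and 6.70 ± 0.15 in KO), then the lectin Clec4e (5.45 ± 0.16 in each) and Ms4a4c (4.55 ± 0.41 and 4.13 ± 0.38). In LPS-treated cells 2 of 12 were higher in KO: the fibronectin gene Fn1 (1.18 ± 0.11, adjusted p = 0.00143) and Vcan (0.51 ± 0.10, adjusted p = 0.0407), with a list median of 0.25, and untreated 0 of 11 passed, with a median of 0.16. Of 12 markers of nonclassical monocytes 8 were tested for LPS: 4 rose and 1 fell in WT, and 3 rose and 1 fell in KO (2 and 2, and 2 and 3, on library totals), with medians of 0.46 and 0.37. The integrin Itgal (2.24 ± 0.22 and 2.28 ± 0.20) and the factor Cebpb (1.20 ± 0.16 and 1.52 ± 0.16) rose, and Nr4a1, a nuclear receptor needed by nonclassical monocytes, fell (-2.19 ± 0.43 and -2.21 ± 0.34). None passed between genotypes, with medians of 0.50 untreated and 0.27 with LPS.

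Of 23 further genes of coagulation and the vitamin K cycle 15 were tested for LPS: 5 rose and 2 fell in WT, and 6 rose and 2 fell in KO (4 and 8, and 4 and 6, on library totals), with medians of -0.01 and 0.19. Tissue factor, F3, the trigger of coagulation, rose (3.13 ± 0.24 in WT and 3.73 ± 0.24 in KO), as did Tgm2, a transglutaminase related to F13a1 (2.05 ± 0.10 and 2.03 ± 0.10), and the protein C receptor Procr (1.90 ± 0.14 and 2.46 ± 0.14). None of 14 passed between genotypes, with medians of 0.03 untreated and 0.18 with LPS. Of 7 relatives of Ly6c2, Ly6e (1.64 ± 0.18 and 1.29 ± 0.18) and Ly6a (1.99 ± 0.50 and 1.55 ± 0.40) were tested and rose with LPS on both scales. Of the relatives of Adgre4, Adgre1, which encodes a surface antigen of macrophages, rose on the TMM scale (0.61 ± 0.10 and 0.60 ± 0.10) but not on library totals (0.06 and 0.00), and Adgre5 fell (-1.13 ± 0.25 and -1.09 ± 0.24).

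Of 10 macrophage identity genes 5 rose and 1 fell with LPS in each genotype (3 higher, with 4 lower in WT and 5 in KO, on library totals), with medians of 0.27 and 0.29. Cd14, the LPS co-receptor (2.29 ± 0.14 and 2.55 ± 0.15) and the Fc receptor Fcgr1 (2.01 ± 0.11 and 1.93 ± 0.11) rose. Of 10 regulators of the passage from monocyte to macrophage 4 rose and 5 fell (3 and 6 on library totals), with medians of -0.46 and -0.27. Irf8 rose (3.24 ± 0.10 and 3.14 ± 0.10), and Cebpa fell (-4.91 ± 0.18 and -5.43 ± 0.18). Neither list held a gene that passed between genotypes, with the most abundant members at -0.34 ± 0.21 (Cd68) and -0.17 ± 0.19 (Zeb2) untreated.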

How the data were processed

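Messenger RNA was sequenced single-end at 50 bp in 12 libraries. Alignment involved STAR 2.5.2b, SAMtools 1.3.1 and mm10, per the submitters' processing notes, and the counting tool is not stated there. The deposited tables hold whole-number read counts per RefSeq transcript, not normalized, and the authors' RPKM, used only for levels between genes. Of 35745 transcripts, 35440 were named from RefSeq (GRCm38.p6) and 188 from GENCODE; 117 without a name, 0.259% to 0.738% of a library's counts, were left out.

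Counts were filtered (filterByExpr), TMM scaled and tested with edgeR 4.0.16 (quasi-likelihood, robust, R 4.3.3, limma 3.58.1), adjusted over all genes by Benjamini-Hochberg. Genotypes were compared within each condition, and LPS responses and their interaction on 12 libraries as 4 groups. Standard errors are the log2 fold change over the square root of F. The genotype tests were run on simulated counts of genes drawn from all those tested, each with a single mean level. There 85 of 100 genes changed 2-fold were recovered untreated and 90 with LPS, with 21 and 8 false calls. Alternatives included DESeq2 1.42.0, no filter, other scaling, a replicate block and leaving out libraries. No single-gene exact permutation test was run, since with 3 libraries a group its two-sided p cannot go below 0.1.

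The 9 genes and the lists were chosen with earlier results of these data known. By rule all 9 genes were named, with up to 3 passing genes of each list by smallest p, or else its most abundant member. Upstream windows were for genes passing with LPS. The Ccr1 window, and the markers whose levels are named beside sums, were chosen after values were seen. Deviations of same-numbered libraries of a genotype correlated between conditions in all 6 pairs (0.197 to 0.567), so the numbers appear to pair LPS with untreated libraries. The main LPS and interaction tests did not use this pairing. With the numbers as a block, 8156 of all genes passed for LPS in WT in place of 6876, and 8701 in KO in place of 7333. The interaction gave 0 genes with the block too. Between genotypes not every pair passed 0.1 (-0.0288 to 0.264 within a condition) and no label ties the numbers. They were therefore not taken as pairs between genotypes, although replicate 2 was male in both. Some genes of the lists, and results that need them, are not reported here.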

Additional observations from a re-analysis of the deposited data

How the results depend on the processing

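Genes called for KO over WT, 0 of 9 genes and 0 of all genes untreated, became 40 of all genes with DESeq2, 9 with no filter on low counts, 27 in the fit of all 12 libraries and 1 on library totals. With LPS, 127 genes became 239 with DESeq2, 276 with no filter, 47 with the replicate block and 17 without replicate 2 of every group. Leaving out WT replicate 1 of both conditions, a choice made after seeing the data as was the use of library totals, gave 3 of the 9 and 749 of all genes untreated, 2 of the 9 and 545 of all genes with LPS, and 24 genes for the interaction. Leaving out 1 library at a time gave 0 to 3 of the 9 and 0 to 749 genes untreated, and 0 to 2 of the 9 and 17 to 545 genes with LPS; the high ends came without WT replicate 1. The low end of 17 came without LPS-treated KO replicate 3, with 20 without LPS-treated WT replicate 3, 55 without KO replicate 1 and 61 without KO replicate 2. The cause was not tested.

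The block raised the count of the 9 genes in the LPS response of KO from 6 to 8, by Ccr1 and F13a1, and changed no other call of the 9. In the genotype comparisons no label ties same-numbered libraries, although they share sex (replicate 2 male, the others female), and the block left 0 of the 9 called.

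Log2 values that changed sign were those of genes that had not passed. Without replicate 2 of every group, Ccrl2 was 0.07 for KO over WT untreated, Ccr2 -0.39 and Ccr1 -0.0044 with LPS, and Ccr1 -0.06 in the interaction. On library totals, Ccrl2 was 0.02 untreated and Ly6c2 0.01 with LPS for KO over WT, and for LPS over untreated Ccr1 was -0.51 in WT and -0.42 in KO, F13a1 -0.47 and -0.32, and Adgre4 -0.46 in WT. Without WT replicate 1 of both conditions, Ccrl2 was -0.06 and Ly6c2 0.45 for KO over WT with LPS, Ccr1 -0.01 and Adgre4 -1.49 for LPS in WT, and Adgre4 1.26 in the interaction. Leaving out 1 library at a time, values for KO over WT ran from -0.07 to 0.36 for Cx3cr1 and -0.14 to 0.08 for Ccrl2 untreated, and with LPS from -0.20 to 0.44 for Ccr2, -0.06 to 0.19 for Ccrl2 and -0.34 to 0.45 for Ly6c2. For LPS in WT they ran from -0.01 to 0.12 for Ccr1, -0.51 to 0.71 for F13a1 and -1.58 to 0.60 for Adgre4. In the interaction they ran from -0.89 to 0.06 for Ccr2, -0.13 to 0.49 for Cx3cr1, -0.02 to 0.25 for Ccrl2, -0.44 to 0.78 for F13a1, -0.17 to 0.12 for F10 and -0.82 to 1.37 for Adgre4. Of the other alternative values of single genes, 708 kept their direction and side of the threshold, 13 came to pass and 11, all of Ly6c2 in KO, no longer passed. In the fit of the 6 WT libraries, 4 of the 9 passed for LPS in place of 6, since Plac8 and Ly6c2 had too few reads to be tested. Depth limits Ly6c2, Plac8, Cx3cr1 and Adgre4, which had 1 to 46 reads per library.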
